A study of Mus musculus with 8 samples.

Results

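The 10 genes described here encode the major heat shock proteins of the cytosol and the mitochondrial matrix: Hspa1a, Hspa1b, Hspa8, Hsph1, Dnajb1, Hsp90aa1, Hsp90ab1, Hspb1, Hspd1 and Hspe1. They were taken by symbol from a table of 48321 genes, of which 17488 had values, and all 10 had values in all 8 libraries. Total RNA of mouse E14 embryonic stem cells was sequenced on the Illumina platform in 4 groups of 2 libraries each. In the GSK3β line the Gsk3β gene was knocked out and a mutant kinase, GSK3β-L132G, was supplied as a transgene. In the GSK3α line Gsk3α was knocked out and GSK3α-L195G was supplied in the same way. Both changes are of the analog-sensitive kind, in which an enlarged ATP pocket lets a bulky inhibitor such as 3MB-PP1 bind. The groups are GSK3β cells given 5 µM 3MB-PP1 for 2 h, untreated GSK3β cells, GSK3α cells given the same treatment and untreated GSK3α cells. Cells of all groups had been kept without serum in N2B27 medium for 6 h. Each line keeps the normal gene of the other paralog, each paralog is represented by 1 line, no vehicle is stated for the untreated cells, and no line without a mutant kinase is given, so an action of 3MB-PP1 on other targets cannot be told apart from inhibition of the mutant kinase.

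Heat shock proteins are chaperones that bind unfolded protein, keep it from clumping and help it to fold. Hsp70 proteins work in cycles of ATP hydrolysis that J-domain proteins such as Dnajb1 start and nucleotide exchange factors such as Hsph1 complete, and Hsp90 takes over clients such as kinases and steroid receptors. In the mitochondrial matrix the barrel formed by Hspd1 is closed by the lid formed by Hspe1. Part of the family is induced by stress through the factor Hsf1, which binds alternating repeats of the letters GAA and TTC in promoters. GSK3 is known to phosphorylate Hsf1, and pluripotent stem cells are known for high levels of the constitutive chaperones.

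The values are gene counts that were estimated by the authors and scaled so that the third quartile is equal in every library. The libraries hold 21.5 to 32.4 M estimated reads. The GSK3α line held more Gsk3a than the GSK3β line, at 157.7 ± 3.31 and 77.04 ± 1.21 in untreated cells (SD, n = 2 each), and Gsk3b was at 245.5 ± 14.9 in untreated GSK3β cells and 56.46 ± 2.5 in untreated GSK3α cells, so the libraries follow their labels, though reads of a transgene and of the normal gene cannot be told apart in these values. The embryonic stem cell markers summed to 6317 to 6490 in the 8 libraries. Nothing in the labels says whether the libraries of a group were separate cultures, and the p-values can only speak of how far these libraries lie apart. In bulk RNA, fewer cells of a kind and less RNA per cell cannot be told apart. Replicates of a group differed by at most 0.29 on the log2 scale for any of the 10 genes, in Hspa1a of treated GSK3β cells.

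Windows of 300 bases around transcript starts, 250 before and 50 after, were taken from RefSeq on build GRCm38.p6 and existed for 7 of the 10 genes. Hspa8, Hsp90aa1 and Hsp90ab1 had no entry. The motifs searched were GAANNTTC and TTCNNGAA, inverted pairs of the unit that Hsf1 binds, and runs of 3 units, GAANNTTC followed by NNGAA and TTCNNGAA followed by NNTTC, which hold the pairs within them. Both strands were read. A pair occurs in 15.1% of the 32851 windows of the genome and a run of 3 units in 0.603%. A match is a description of letters and not a mapped site. Hspa1a and Hspa1b are shown because their upstream bases are almost the same and both fell in treated GSK3β cells. Capitals mark a pair, which lies at -104 to -97 from the start in both genes. Hspa1a spans chr17:34972157-34972406 and Hspa1b spans chr17:34959239-34959488, both on the minus strand.
Hspa1a: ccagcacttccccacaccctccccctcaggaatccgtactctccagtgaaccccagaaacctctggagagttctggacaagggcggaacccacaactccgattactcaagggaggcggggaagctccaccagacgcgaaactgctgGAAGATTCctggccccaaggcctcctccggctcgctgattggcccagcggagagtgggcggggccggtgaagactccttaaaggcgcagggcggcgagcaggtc
Hspa1b: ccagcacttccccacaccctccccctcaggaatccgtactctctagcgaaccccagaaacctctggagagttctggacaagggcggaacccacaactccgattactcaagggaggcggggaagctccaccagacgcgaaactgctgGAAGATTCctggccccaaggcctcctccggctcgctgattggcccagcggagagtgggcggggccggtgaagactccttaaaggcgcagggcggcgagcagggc
Of the 250 bases, 247 are identical. Counted from 1 at the 5′ end with the Hspa1a base first, the differences are C44T, T47C and T249G, and none of them lies in the pair. The 250 bases before the RefSeq start of Dnajb1, at chr8:83607925-83608174 on the plus strand, are shown because this gene fell as well and its window holds no match, so no base is in capitals.
Dnajb1: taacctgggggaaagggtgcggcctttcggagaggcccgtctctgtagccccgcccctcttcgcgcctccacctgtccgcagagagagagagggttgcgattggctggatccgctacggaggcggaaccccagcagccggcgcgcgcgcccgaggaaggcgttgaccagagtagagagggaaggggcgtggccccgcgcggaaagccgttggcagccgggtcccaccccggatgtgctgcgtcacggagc
Hspe1 and Hspd1 lie head to head on chromosome 1 and share a stretch with 4 alternating units, in capitals, -89 to -72 from the Hspe1 start. The bases shown span chr1:55088053-55088082 on the plus strand. Hsph1 has a pair at chr5:149636362-149636369 and a run of 3 units just after its start. The bases shown, with the pair in capitals, span chr5:149636351-149636380 on the minus strand.
Hspe1: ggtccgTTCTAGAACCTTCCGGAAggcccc
Hsph1: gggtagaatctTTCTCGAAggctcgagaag
Hspb1 is shown with both of its pairs, whose starts lie 20 bases apart, at chr5:135887802-135887809 and chr5:135887822-135887829. The bases shown span chr5:135887791-135887820 and chr5:135887811-135887840 on the plus strand.
Hspb1: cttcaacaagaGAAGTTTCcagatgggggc
Hspb1: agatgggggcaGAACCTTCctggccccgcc
Among the genes with a window, Hspe1, Hspd1 and Hsph1 hold a run of 3 units, Hspa1a, Hspa1b and Hspb1 hold pairs only, and Dnajb1 holds no match in either of its windows. For Hspd1 the run lies in the window of the start at chr1:55087932, and the window of its start at chr1:55088243 holds no match. Genes with and without a match were among those that fell in GSK3β cells.

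In the GSK3β line, Hspa1a, Hspa1b, Hspa8 and the Hsp70 partners Dnajb1 and Hsph1 were lower after 3MB-PP1, and the Hsp90 genes did not pass the test. Of the 10 genes, 6 fell and 0 rose, against a background of 7.44% of all tested genes that fell and 7.49% that rose (1038 and 1046 of 13959), 14.9% in all. The genes that fell were Hspa1a, Hspa1b, Dnajb1, Hsph1, Hspa8 and Hspe1. Hspa1a and Hspa1b are near-identical, so they do not count as 2 independent genes. The 10 genes were chosen with earlier results of these data known, which limits the comparison with all genes. The median log2 change of the 10 genes was -0.13, and that of all tested genes was -0.01. In the GSK3α line the median was -0.03 against 0.01 for all genes, and 0 of the 10 genes passed, where 0.881% of all genes did, 0.265% higher and 0.616% lower. At an unadjusted p under 0.05, 2 of them passed in that line, a threshold at which all genes were not counted. With limma-voom on estimated reads 0 of them passed, where 85 of all genes did. The test was limma-trend on log2(value + 1) with 4 group means, and a gene is called at an adjusted p under 0.05 by Benjamini-Hochberg over all 13959 genes tested. The added 1 understates the change of genes at low values, of which Hspa1a is the lowest here.

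**Figure D1:**
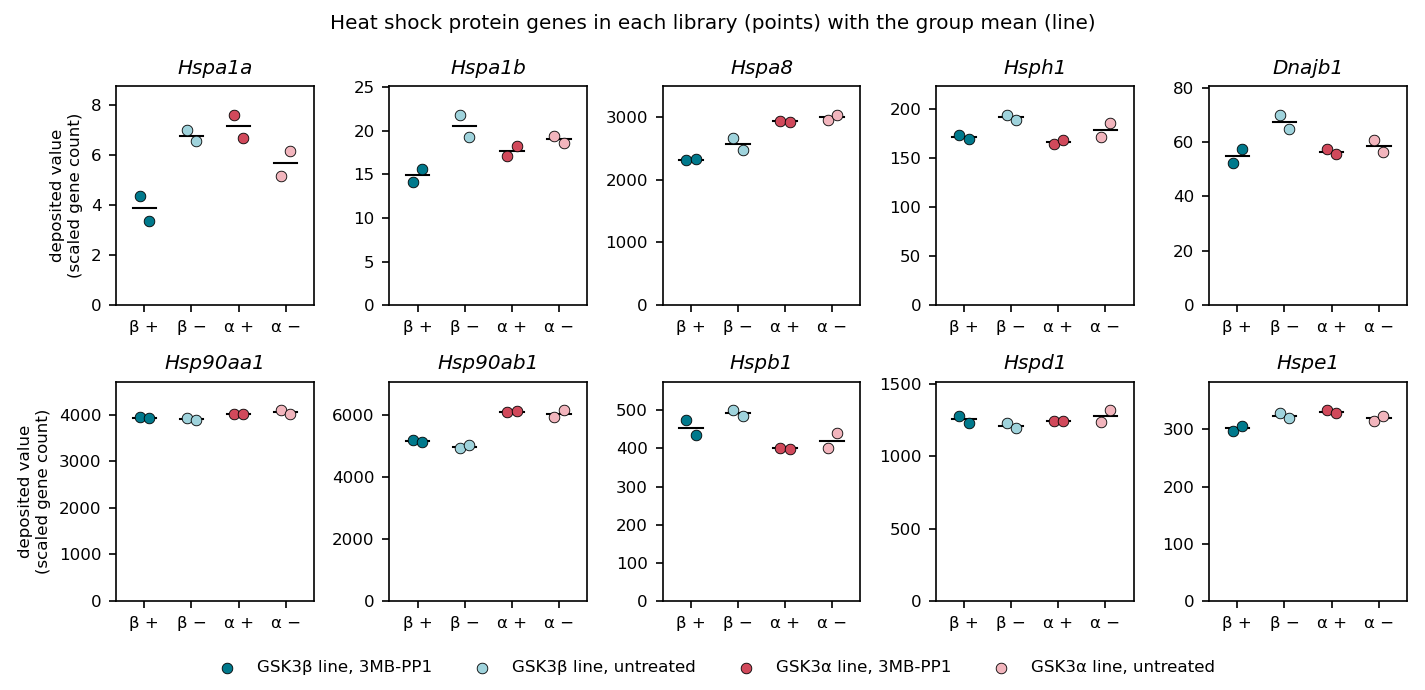
Deposited value (scaled gene count, linear axis from 0) of each heat shock protein gene in the 8 libraries; points are libraries, lines are group means, β and α are the lines, + is 3MB-PP1 and − is untreated. Hspa1a, Hspa1b and Dnajb1 are lower in both treated GSK3β libraries than in both untreated ones, while the Hsp90aa1 groups overlap within each line.

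Hspa1a and Hspa1b, the stress-inducible Hsp70 genes, lie next to each other within the major histocompatibility region of chromosome 17, at chr17:34969190-34972156 and chr17:34956436-34959238 on the minus strand (build mm10, GENCODE M21). Hspa1a had 4.34 and 3.38 in treated GSK3β libraries, against 6.99 and 6.53 in untreated ones. In the GSK3α line it had 7.61 and 6.66 in treated libraries, against 5.17 and 6.16 in untreated ones. Treated cells were thus lower than untreated cells in the GSK3β line and higher in the GSK3α line, with no overlap in either line. Hspa1b had 14.1 and 15.7 in treated GSK3β libraries, against 21.8 and 19.3 in untreated ones, and 17.1 and 18.3 in treated GSK3α libraries, against 19.4 and 18.6 in untreated ones. Both treated libraries were lower in each line, by more in the GSK3β line. The log2 change in GSK3β cells was -0.68 ± 0.11 (SE) for Hspa1a and -0.44 ± 0.07 for Hspa1b, with adjusted p of 0.000386 and 0.000332. In GSK3α cells it was 0.29 for Hspa1a, with an interval of 0.05 to 0.53 at 95% and an adjusted p of 0.309, and -0.10 for Hspa1b, with an adjusted p of 0.644. The difference of the responses, GSK3β line minus GSK3α line, was -0.97 ± 0.16 for Hspa1a (adjusted p = 0.001) and -0.34 ± 0.10 for Hspa1b (adjusted p = 0.0545). Over the alternative fits, which include each library left out, the Hspa1b difference ranged from -0.43 to -0.26. With no library left out, it passed only with limma-voom (adjusted p = 0.0494), limma on equal sums (0.0425) or a mean of at least 5 (0.0432). Hspa1a values rest on 116 to 207 estimated reads and Hspa1b values on 437 to 602.

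The split between these genes is uncertain. Their coding sequences differ at 11 of 1926 aligned positions, an identity of 99.4%, and 58.8% of the 50-base stretches of Hspa1a transcripts also occur in Hspa1b. How the authors divided shared reads is not given in the sources used here, so the sum was fitted as well. The sum was 18.5 and 19.0 in treated GSK3β libraries, against 28.8 and 25.8 in untreated ones. It was 24.8 and 24.9 in treated GSK3α libraries, against 24.6 and 24.7 in untreated ones. Treated GSK3β libraries were below all 6 others, and the 4 GSK3α libraries were nearly equal. The summed log2 change was -0.52 ± 0.06 in GSK3β cells (limma, adjusted p = 6.09e-06) and 0.01 in GSK3α cells, with an interval of -0.12 to 0.13 and an adjusted p of 0.973. The difference between the lines was -0.53 ± 0.08, with an adjusted p of 0.000702. The ratio of Hspa1b to Hspa1a was 3.25 and 4.63 in treated GSK3β libraries, against 3.12 and 2.95 in untreated ones, and 2.25 and 2.74 in treated GSK3α libraries, against 3.76 and 3.02 in untreated ones. The higher Hspa1a of treated GSK3α cells came with a lower Hspa1b, and the interval given bounds the change of their sum. Gm20481, annotated on the opposite strand over Hspa1a, was at 0.228 to 0.707, and reads of either strand cannot be told apart without a stated strand setting.

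**Figure D2:**
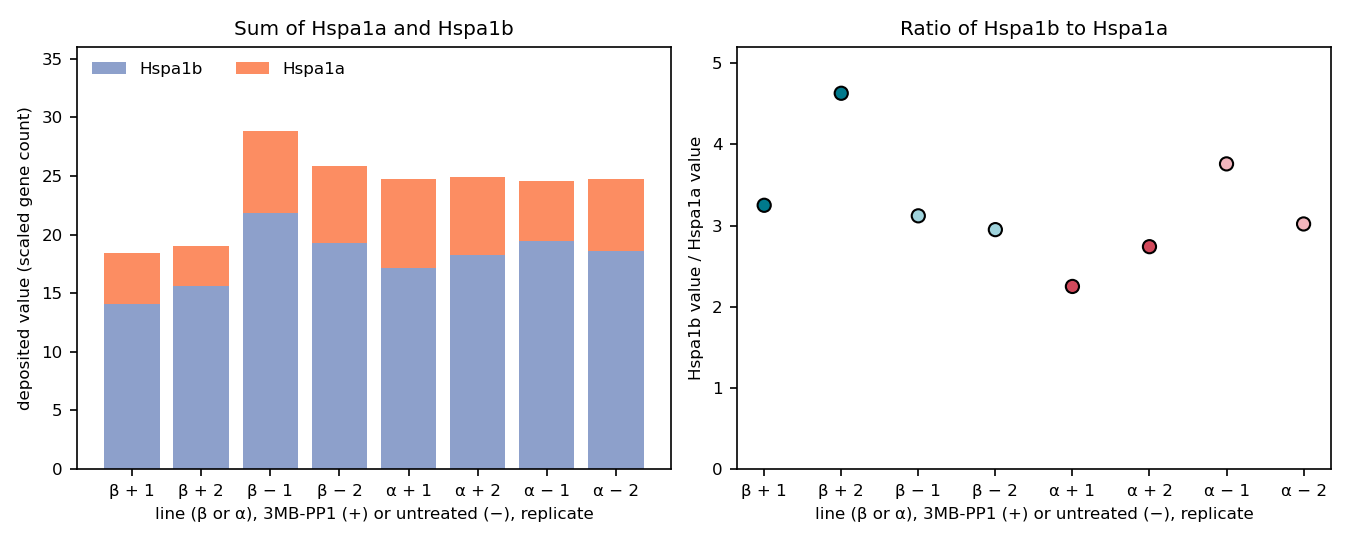
Left, deposited values (scaled gene count) of Hspa1b and Hspa1a stacked for each library; right, the ratio of the Hspa1b value to the Hspa1a value. The summed bar is lowest in both treated GSK3β libraries, at 18.5 and 19.0, and nearly flat over the 4 GSK3α libraries, while the ratio varies from 2.25 to 4.63.

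Hspa8, the constitutive cytosolic Hsp70 (Hsc70), is on the plus strand at chr9:40800984-40810087. It had 2315 and 2326 in treated GSK3β libraries, against 2670 and 2469 in untreated ones, and 2942 and 2917 in treated GSK3α libraries, against 2948 and 3037 in untreated ones. Both treated GSK3β libraries were the lowest of the 8. In each line the treated libraries lay under the untreated ones, though in GSK3α cells by a narrow margin, 2942 against 2948. The log2 change was -0.15 ± 0.03 in GSK3β cells (limma, adjusted p = 0.0072) and -0.03 in GSK3α cells (adjusted p = 0.792), and the difference of the responses did not pass, at -0.12 and an adjusted p of 0.183. The call in GSK3β cells ended without untreated library 1, where the change was -0.09, or without treated library 1, where it was -0.14. Over the alternative fits, which include each library left out, the difference ranged from -0.17 to -0.06. With no library left out, it passed only with limma-voom (adjusted p = 0.0437). Transcripts of Hspa8 share 39.4% of their 50-base stretches with other genes. At chr5:5781530-5783636 the annotation places Gm15459, a processed pseudogene, and on the other strand Gm26825, a noncoding RNA, which hold 34.6% and 34.0% of those stretches. Gm26825 stood at 30 to 31% of the Hspa8 value in every library and Gm15459 at 27.5 to 34.1%. With both added to Hspa8, the sum was 3784 and 3826 in treated GSK3β libraries, against 4219 and 4030 in untreated ones, a log2 change of -0.12 ± 0.03 (limma, adjusted p = 0.0198). This sum was chosen after the data had been seen.

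Dnajb1, the J-domain protein that starts the Hsp70 cycle in the stress response, is at chr8:83608193-83612653. It had 52.2 and 57.4 in treated GSK3β libraries, against 70.1 and 64.6 in untreated ones. In GSK3α cells it had 57.4 and 55.6 in treated libraries, against 60.9 and 56.4 in untreated ones. The GSK3β groups did not overlap and the GSK3α groups did. The log2 change was -0.29 ± 0.05 in GSK3β cells (limma, adjusted p = 6e-04) and -0.05 in GSK3α cells (adjusted p = 0.764). The difference of the responses was -0.24 ± 0.07, with an adjusted p of 0.0548. Over the alternative fits, which include each library left out, it ranged from -0.31 to -0.18. With no library left out, the difference passed only with limma-voom (adjusted p = 0.0494), limma on equal sums (0.0425) or a mean of at least 5 (0.0458). No other gene of the set stays as clear of shared sequence as Dnajb1 and Hsph1, with 0.412% and 0% of their 50-base stretches found in other genes.

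Hsph1 (Hsp105, of the Hsp110 group), which exchanges the nucleotide of Hsp70 and holds unfolded protein itself, is at chr5:149614287-149636376. It had 173 and 169 in treated GSK3β libraries, against 194 and 189 in untreated ones, and 164 and 169 in treated GSK3α libraries, against 171 and 186 in untreated ones. Treated libraries were lower without overlap in both lines. The log2 change was -0.16 ± 0.04 in GSK3β cells (limma, adjusted p = 0.00605) and -0.10 ± 0.04 in GSK3α cells (adjusted p = 0.275), with a difference of -0.06 that did not pass (adjusted p = 0.566). The GSK3β call ended without untreated library 1 (adjusted p = 0.0513) or without treated library 2 (adjusted p = 0.0642).

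The Hsp90 genes did not pass in either line. Hsp90aa1, the inducible cytosolic Hsp90, had 3947 and 3933 in treated GSK3β libraries, against 3939 and 3892 in untreated ones, and 4013 and 4021 in treated GSK3α libraries, against 4096 and 4008 in untreated ones. Its groups overlapped in both lines, and its log2 change was 0.01 ± 0.03 in GSK3β cells and -0.01 ± 0.03 in GSK3α cells, with adjusted p of 0.885 and 0.916. The interval in GSK3β cells, -0.05 to 0.07, bounds any change of this gene, and the sign turned with equal sums and with limma-voom, with no call under either. Hsp90ab1, the constitutive form, had 5191 and 5137 in treated GSK3β libraries, against 4954 and 5029 in untreated ones, a log2 change of 0.05 ± 0.03 (limma, adjusted p = 0.346). In GSK3α cells it had 6091 and 6125 in treated libraries, against 5933 and 6159 in untreated ones. Treated libraries were higher without overlap in the GSK3β line only, and the difference of the responses was 0.03 (adjusted p = 0.74).

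Hspd1 (Hsp60), the mitochondrial chaperonin, and Hspe1 (Hsp10), its lid, are transcribed in opposite directions from neighbouring starts, with the genes at chr1:55077835-55088243 and chr1:55088132-55091307. Hspe1 had 298 and 306 in treated GSK3β libraries, against 328 and 319 in untreated ones, and 333.0 and 328.3 in treated GSK3α libraries, against 314.4 and 323.6 in untreated ones. Hspd1 had 1279 and 1233 in treated GSK3β libraries, against 1230 and 1198 in untreated ones, and 1244 and 1249 in treated GSK3α libraries, against 1239 and 1319 in untreated ones. Treated GSK3β libraries were thus lower in the lid without overlap, and treated GSK3α libraries were higher in it. In the barrel subunit, treated GSK3β libraries were higher only by a narrow margin, 1233 against 1230. Of all genes, 57.3% did not overlap in the GSK3β line and 42% in the GSK3α line. The ratio of Hspd1 to Hspe1 was 4.30 and 4.03 in treated GSK3β libraries, against 3.75 and 3.76 in untreated ones, and 3.74 and 3.80 in treated GSK3α libraries, against 3.94 and 4.08 in untreated ones. In GSK3β cells the log2 change was -0.10 ± 0.03 for Hspe1 (limma, adjusted p = 0.0298) and 0.05 ± 0.03 for Hspd1 (adjusted p = 0.357), and in GSK3α cells it was 0.05 and -0.04, with adjusted p of 0.527 and 0.722. The responses of the lines differed for Hspe1, by -0.15 ± 0.04 (adjusted p = 0.038), and not for Hspd1, by 0.08 (adjusted p = 0.313). The Hspe1 call in GSK3β cells ended without untreated library 1 (adjusted p = 0.183), treated library 1 (0.286) or treated library 2 (0.058), so it rests on single libraries. Without one of 6 libraries in turn, 3 of them from the GSK3α line, its difference between the lines did not pass either.

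Hspb1 (Hsp25 in the mouse), a small heat shock protein that holds unfolded protein without ATP, is at chr5:135887919-135889563. It had 473 and 436 in treated GSK3β libraries, against 500 and 486 in untreated ones, and 401.6 and 399.4 in treated GSK3α libraries, against 401.7 and 439.8 in untreated ones. Treated libraries were lower without overlap in both lines, though in GSK3α cells by a narrow margin. Neither change passed, at -0.12 ± 0.04 in GSK3β cells (limma, adjusted p = 0.0574) and -0.07 ± 0.04 in GSK3α cells (adjusted p = 0.526). Over the alternative fits, which include each library left out, the GSK3β change ranged from -0.18 to -0.06. With no library left out, it passed only with limma-voom (adjusted p = 0.0189), limma on equal sums (0.0263) or a mean of at least 5 (0.0485).

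**Figure D3:**
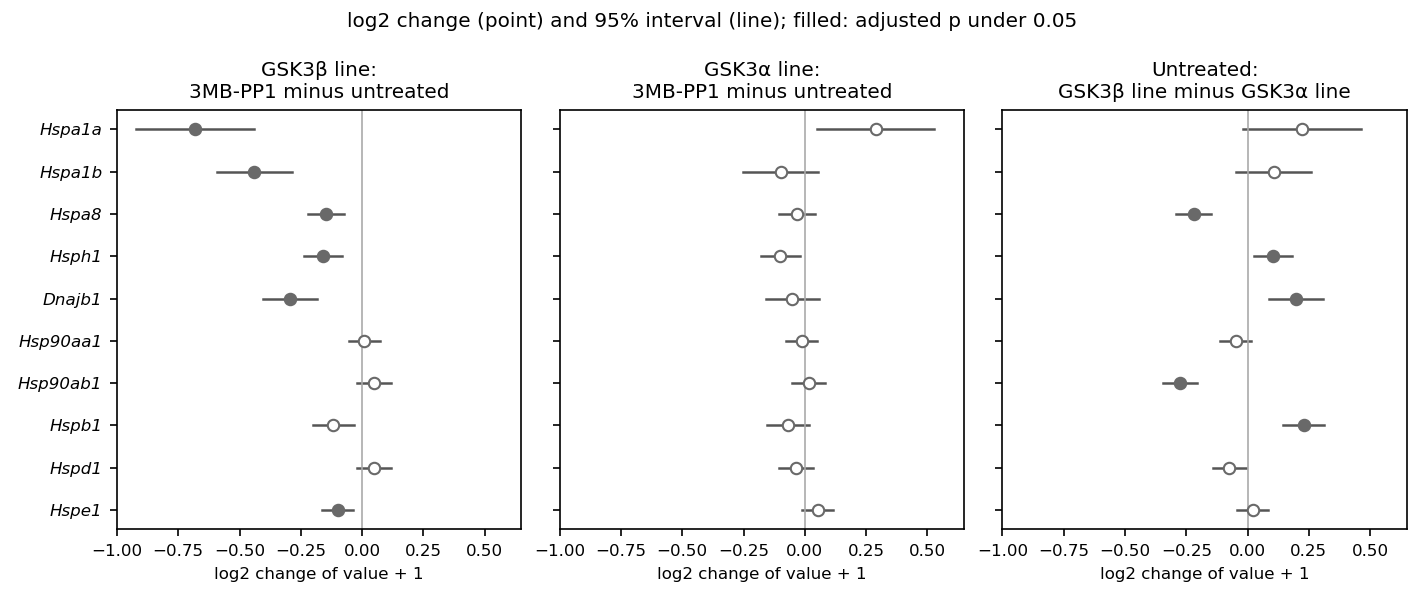
Log2 change of value + 1 of the 10 genes (points) with its 95% interval (lines) for 3MB-PP1 in the GSK3β line, 3MB-PP1 in the GSK3α line, and the untreated lines against each other; filled points have an adjusted p under 0.05. The Hsp70 genes and Dnajb1 lie left of 0 in the GSK3β line, from -0.68 for Hspa1a to -0.15 for Hspa8, and no point is filled in the GSK3α line.

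Whether the response itself differed between the lines was tested as an interaction, and 2 of the 10 genes passed, Hspa1a and Hspe1, both toward lower values in GSK3β cells, against a background of 2.9% of genes in that direction, 3.62% in the other and 6.53% in both. At an unadjusted p under 0.05, 5 passed, a threshold at which all genes were not counted. With limma-voom 5 passed, where 909 of all genes did, 416 higher and 493 lower. Treated and untreated libraries did not overlap for 9 of the 10 genes in the GSK3β line, 2 higher and 7 lower, where 57.3% of all genes did not overlap, 27.3% higher and 30% lower. In the GSK3α line they did not overlap for 6, 2 higher and 4 lower, where 42% of all genes did not, 23% higher and 19% lower.

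Between the untreated lines, the share of heat shock protein genes that passed was close to that of all genes. Of the 10 genes, 3 were higher in the untreated GSK3β line than in the untreated GSK3α line, Hspb1, Dnajb1 and Hsph1, and 2 were lower, Hsp90ab1 and Hspa8. This is 5 of 10, where 48.2% of all genes passed, of which 22.3% were higher and 25.9% lower. Hsp90ab1 had 4954 and 5029 in untreated GSK3β libraries, against 5933 and 6159 in untreated GSK3α ones, with no overlap. Groups did not overlap for 8 of the 10 genes, 4 higher and 4 lower, where 72.2% of all genes did not, 33.5% higher and 38.7% lower. The log2 difference of Hsp90ab1 was -0.28 ± 0.03, that of Hspa8 was -0.22 ± 0.03 and that of Hspb1 was 0.23 ± 0.04, with adjusted p of 1.16e-06, 4.11e-05 and 0.000127 from limma. The difference of Dnajb1 was 0.20 ± 0.05 (adjusted p = 0.00412) and that of Hsph1 was 0.10 ± 0.04 (adjusted p = 0.0295). The Dnajb1 call ended without untreated GSK3β library 1 (adjusted p = 0.0609) or untreated GSK3α library 2 (0.064), and the Hsph1 call without untreated GSK3β library 1 (0.139) or untreated GSK3α library 1 (0.411). Hspd1, at -0.07, did not pass (limma, adjusted p = 0.069), and over the alternative fits it ranged from -0.12 to -0.02. Hspa1a and Hspa1b were at 0.22 and 0.11, with adjusted p of 0.117 and 0.242. The ratio of Hsp90ab1 to Hsp90aa1 was 1.26 and 1.29 in untreated GSK3β libraries, against 1.45 and 1.54 in untreated GSK3α ones. Since each paralog is represented by 1 line, a difference of the lines and a difference of the kinases cannot be told apart. With libraries scaled to equal sums, 58.9% of the calls over all genes were toward higher values in the GSK3β line, and 46.3% with the values as deposited. The untreated GSK3β libraries enter this comparison and the GSK3β response, so the values of Dnajb1 and Hsph1 in both comparisons are not independent.

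Per kilobase of exon, the levels of the 10 genes span a wide range in these cells. The mean over the 8 libraries was 1860 per kilobase for Hsp90ab1, which ranked 9 of the 16900 genes with a length, 1013 for Hsp90aa1, 628.5 for Hspa8, 472.7 for Hspd1, 428.9 for Hspb1 and 216.2 for Hspe1. These 6 stand within the 200 highest genes. Hsph1 and Dnajb1 were at 24.3 and 18.5 per kilobase, Hspa1b at 6.44 and Hspa1a at 1.97. Hspa1a and Hspa1b thus had the lowest levels of the 10 genes, and in GSK3β cells given 3MB-PP1 they also had the largest log2 changes of the 10. Shared sequence weighs on several of these levels, since Hspb1, Hsp90aa1 and Hspd1 share 50.1%, 47.5% and 42.1% of their 50-base stretches with other genes. Their copies with values carried little, at most 2.3 for Hsp25-ps1, 1.7 for Gm12346 and 0.536 for Hspd1-ps3. Together the 10 genes made up 1.46 to 1.61% of the summed values of a library.

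Around these genes, 92 tested genes of 9 further lists were read in the same fit. The lists hold chaperones, co-chaperones, mitochondrial quality-control proteases, and heat shock factors with their regulators. In GSK3β cells 10 of the 92 passed, 4 higher and 6 lower, which is 10.9% against 14.9% of all genes, with a median log2 change near 0. In GSK3α cells 1 passed, Sirt1, which is 1.09% against 0.881% of all genes. At an unadjusted p under 0.05, where all genes were not counted, 11 did, and limma-voom called 1. Partners of Hsp70 changed in both directions in GSK3β cells. Of 16 other cytosolic J-domain genes, Dnajb5, Dnaja1 and Dnajc9 fell, by 0.30, 0.17 and 0.16 on the log2 scale with adjusted p of 0.000229, 0.00139 and 0.00352, and Dnajc7 rose by 0.09 (adjusted p = 0.0484). Of 9 exchange and adaptor genes, Bag3 alone passed. Bag3, which links Hsp70 to small heat shock proteins and to autophagy, had 38.70 and 35.99 in treated GSK3β libraries, against 29.4 and 30.7 in untreated ones. In GSK3α cells it had 31.4 and 33.1 in treated libraries, against 32.7 and 37.1 in untreated ones. It was thus higher without overlap in GSK3β cells and not in GSK3α cells. Its log2 change was 0.30 ± 0.06 in GSK3β cells (limma, adjusted p = 0.00162) and -0.11 in GSK3α cells (adjusted p = 0.496), and the responses differed by 0.41 ± 0.08 (adjusted p = 0.00586). The call of this difference ended without treated GSK3β library 1 (adjusted p = 0.0505). Of the 92 genes, 3 passed for the difference of the responses, which is 3.26% against 6.53% of all genes: Bag3, Spg7 at -0.30 (adjusted p = 0.00851) and Dnajc9 at -0.18 (adjusted p = 0.0355, and 0.0891 to 0.149 without any of 6 libraries in turn).

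Hspb8, the small heat shock protein that works with Bag3, rose as well. It had 51.4 and 51.0 in treated GSK3β libraries, against 41.2 and 43.8 in untreated ones, and 39.0 and 37.7 in treated GSK3α libraries, against 34.0 and 33.1 in untreated ones. Treated libraries were higher without overlap in both lines. The log2 change was 0.26 ± 0.05 in GSK3β cells (limma, adjusted p = 0.000637) and 0.19 ± 0.05 in GSK3α cells (adjusted p = 0.0681), with a difference of 0.08 that did not pass (adjusted p = 0.559). It was the only call among the 5 tested genes of the other small heat shock proteins. Hspa2, an Hsp70 best known from the testis, was the only call among 6 other Hsp70 and Hsp110 genes, with 10.1 and 10.3 in treated GSK3β libraries, against 7.90 and 8.21 in untreated ones, and a log2 change of 0.31 ± 0.08 (adjusted p = 0.0141). That call ended when treated library 1, treated library 2 or untreated library 1 of the GSK3β line was left out, with adjusted p of 0.0821 to 0.0962. The call of Dnajc7 ended in the same way for any of 6 libraries, with adjusted p of 0.0692 to 0.375.

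Among the heat shock factors and their regulators, Hsf1 itself did not pass in either line. It had 25.19 and 25.99 in treated GSK3β libraries, against 25.96 and 25.07 in untreated ones, and 30.7 and 31.8 in treated GSK3α libraries, against 30.3 and 31.9 in untreated ones. The groups overlapped within each line, with log2 changes of 0.00 ± 0.05 and 0.01 ± 0.05, while the untreated GSK3β line was lower than the untreated GSK3α line by -0.28 ± 0.05 (limma, adjusted p = 0.000305). Hsbp1, which binds Hsf1 trimers, was higher in the untreated GSK3β line by 0.33 ± 0.04 (adjusted p = 5.91e-07). Sirt1, a deacetylase known to act on Hsf1, fell in both lines. It had 110.2 and 109.1 in treated GSK3β libraries, against 133.7 and 132.5 in untreated ones, and 156.1 and 158.0 in treated GSK3α libraries, against 188.5 and 189.5 in untreated ones. All treated libraries were lower, by -0.28 ± 0.03 in GSK3β cells (adjusted p = 3.8e-06) and -0.27 ± 0.03 in GSK3α cells (adjusted p = 0.000144), and the responses differed by -0.01 with an interval of -0.10 to 0.08. The estimates for Sirt1 were close to each other in both lines.

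The calls of the other chaperone machines in GSK3β cells stand beside 14.9% of all genes that passed there. In lists this small, 0 or 1 call says little against that share. Of 18 Hsp90 co-chaperones, Fkbp4 alone passed in GSK3β cells, with a fall of 0.09 on the log2 scale (limma, adjusted p = 0.0349) that did not pass without untreated library 1 (0.189), treated library 1 (0.258) or treated library 2 (0.111). Of 16 tested mitochondrial genes beside Hspd1 and Hspe1, Spg7, a subunit of an inner-membrane protease, fell by 0.22 (adjusted p = 0.00245; 0.0504 without untreated library 1). The 8 subunits of the cytosolic chaperonin CCT gave 0 calls, also at an unadjusted p under 0.05 and with limma-voom, in GSK3β cells, and their log2 changes there lay between -0.02 and 0.04. The 6 prefoldin subunits gave 0 calls, 2 at an unadjusted p under 0.05 and 1 with limma-voom. In the endoplasmic reticulum, outside the 9 lists, 1 of 11 chaperones passed, Hyou1, an Hsp110 of that compartment, at 0.14 (adjusted p = 0.00536). That call did not pass without untreated library 1 (0.0683) or treated library 1 (0.0763). Between the untreated lines, 43 of the 92 genes of the 9 lists passed, 18 higher and 25 lower in the GSK3β line. This is 46.7% against 48.2% of all genes. The largest of these among Hsp90 co-chaperones was Unc45a, a myosin chaperone, at -0.59 ± 0.05 (adjusted p = 1.25e-08). Of 11 chaperones of the endoplasmic reticulum, 8 were higher and 2 lower in the untreated GSK3β line. Of all genes, 22.3% were higher and 25.9% lower there.

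**Figure D4:**
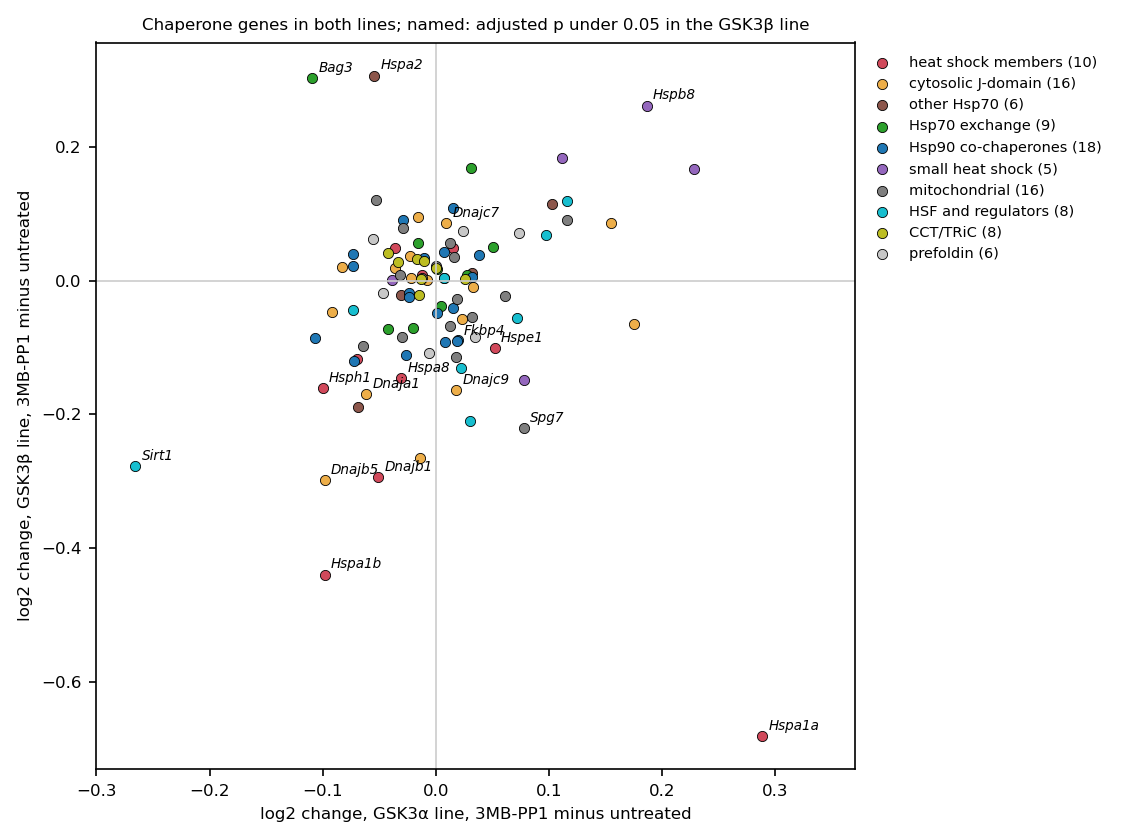
Log2 change (3MB-PP1 minus untreated) of the 10 heat shock protein genes and 92 other chaperone genes in the GSK3α line (horizontal axis) and the GSK3β line (vertical axis); colours are the gene lists, and genes with an adjusted p under 0.05 in the GSK3β line are named. Hspa1a lies farthest to the lower right, at 0.29 in the GSK3α line and -0.68 in the GSK3β line, and Sirt1 is lower in both.

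Genes outside these lists with the most similar profile were found by Pearson r on log2(value + 1) over the 8 libraries, which is a description across 4 groups and not 8 independent conditions. For the sum of Hspa1a and Hspa1b these were Epcam (r = 0.9948), Rheb (0.9928), Crmp1 (0.9924), Marcks (0.9879) and Elmo1 (0.9791). Epcam, an adhesion molecule of epithelia and stem cells, had 100.4 ± 3.17 in treated and 133.3 ± 9.68 in untreated GSK3β cells, and 125.7 ± 1.6 in treated and 124.1 ± 1.72 in untreated GSK3α cells (SD, n = 2 each). For Hspa8 the most similar were Gm26825 (r = 0.9963), which shares sequence with it, Aire (0.9934), Tmeff1 (0.9912), Pak1 (0.9909) and 1700029P11Rik (0.9902).

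Some cell-state markers moved with the GSK3β response. The 2-cell-like state is a rare state of stem cell cultures, and 11 of its 13 listed markers were tested. Of these, 4 fell in GSK3β cells and 0 rose, where 7.44% of all genes fell and 7.49% rose. The 4 were Zscan4a, Zscan4c, Zscan4d and Zscan4f, near-identical copies at -0.32, -0.31, -0.27 and -0.28. The falls of Zscan4a, Zscan4c and Zscan4d did not pass without untreated library 1 or treated library 1. The other tested markers did not pass. Zscan4b, Tmem92, Zscan4e and Gm6763 were at -0.27, -0.18, -0.09 and -0.02. Zfp352, Usp17lc and Usp17la were at 0.22, 0.17 and 0.01, and Zfp352 and Usp17lc were higher without overlap. Tcstv1 and Tcstv3 had a mean under 1 and were not tested. Tcstv1 was at 0.794 ± 0.0022 in treated and 0.5398 ± 0.251 in untreated GSK3β cells (SD, n = 2 each). Tcstv3 was at 0.5112 ± 0.0774 and 0.5107 ± 0.198. The list summed to 155.0 to 162.6 in treated GSK3β libraries, against 177.6 to 192.2 in untreated ones, and to 158.6 to 160.3 in treated GSK3α libraries, against 160.8 to 171.6 in untreated ones. Of 9 stem cell markers, 3 rose and 2 fell in GSK3β cells, with sums that overlapped; Klf4 and Esrrb were at 0.59 and 0.22, and Fgf4 and Tdgf1 at -0.52 and -0.24. Of 5 tested trophoblast markers and 4 of primitive endoderm, Tfap2c and Lama1 rose by 0.85 and 0.56. The other tested members of both lists did not pass, and Krt7, Ascl2 and Pdgfra were at -0.21, -0.03 and -0.01. Trophoblast markers summed to 66.5 to 71.5 in treated GSK3β libraries, against 40.6 to 47.0 in untreated ones, of which Tfap2c alone gave 46.62 ± 4.76 and 25.47 ± 3.96 (SD, n = 2 each). In GSK3α cells they summed to 60.3 to 62.2 in treated libraries, against 61.6 to 63.5 in untreated ones. Primitive endoderm markers summed to 36.8 to 40.4 in treated GSK3β libraries, against 28.5 to 29.6 in untreated ones, of which Lama1 alone gave 27.78 ± 2.41 and 18.48 ± 0.394. In GSK3α cells they summed to 42.5 to 42.7 in treated libraries, against 40.2 to 41.1 in untreated ones. Elf5 and Foxa2 were listed without values. Cdx2, Gata6, Sox17 and Sox7 had a mean under 1 and were not tested. Cdx2, a trophoblast marker, was at 2.853 ± 0.596 in treated and 0.258 ± 0.0884 in untreated GSK3β cells. In GSK3α cells it was at 0.511 ± 0.00544 and 0.349 ± 0.0726 (SD, n = 2 each). Means of Gata6, Sox17 and Sox7 were lower in treated GSK3β cells, at 0.4536, 0.4974 and 0.6736 against 0.4855, 0.5711 and 0.7294. Of 7 fibroblast markers 3 had values, with sums of 9.34 to 14.01 over the 8 libraries, and Col3a1, Postn, Lum and Dcn were listed without values. Genes that collect reads of ribosomal RNA, Gm42418, Gm26917 and Lars2, fell in GSK3α cells, where they summed to 1963 to 1970 in treated and 2294 to 2676 in untreated libraries, and gave 0 of 3 calls in GSK3β cells, also at an unadjusted p under 0.05 and with limma-voom. Without treated GSK3α library 1 none of these falls passed, with log2 changes of -0.18 for Gm42418 (limma, adjusted p = 0.393), -0.20 for Gm26917 (0.197) and -0.36 for Lars2 (0.197). The Gm42418 call also ended without untreated GSK3α library 1 (0.073) or 2 (0.106), and the Lars2 call without untreated GSK3α library 1 (0.185), where its change was -0.20, or treated GSK3α library 2 (0.194). The part of these markers in the change of the heat shock protein genes was not tested.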

How the data were processed

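Total RNA of 8 libraries in 4 groups of 2 was measured, grouped by the labels. Per the submitters' processing notes the authors used TopHat2, Partek and mouse build mm10; versions, annotation, strand and filters are not given in the sources used here. The deposited signal values are estimated gene counts scaled by the authors to an equal upper quartile, with a spread of 0.0548%. They are not raw counts, since only 63.5 to 67.6% of low values, of 20 estimated reads or fewer, lay within 0.1 of a whole number. Estimated reads are a value divided by the smallest of its library.

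The test was limma-trend (limma 3.58.1, R 4.3.3) on log2(value + 1) with 4 group means and 4 residual degrees of freedom, for the 13959 genes with a mean of at least 1, two-sided, Benjamini-Hochberg over all of them, threshold 0.05. The design named a count test for raw counts and limma-trend for scaled values, and limma-trend was used. SE and 95% intervals are from the fit. Only its calls were tried on simulated data, which had normal spread set by level alone. SE and intervals were not checked in this way. Shared 50-base stretches, lengths and coding identity came from GENCODE M21, of which 96.7% of genes with values matched a length, with Python 3.11.15 and Biopython 1.88. The genes and lists were chosen with earlier results of these data known. All 10 members are named in every comparison, and up to 4 passing genes of each list. Replicate numbers are shared by the groups, but the correlation of their deviations was -0.0447 to 0.0271 over 6 pairs of groups, so they were not treated as pairs. Alternatives were other pseudocounts, filters, scalings and fits, a replicate block, each library left out, and summed Hspa1a and Hspa1b; summing Hspa8 with its copies was added after the data had been seen.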

Additional observations from a re-analysis of the deposited data

Results flagged for a closer look

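The response to 3MB-PP1 differed between the lines for Hspa1a, by -0.97 on the log2 scale (GSK3β line minus GSK3α line, limma, adjusted p = 0.001). Both treated GSK3β libraries were lower than both untreated ones, and both treated GSK3α libraries were higher, so the estimates had opposite signs. The rise in GSK3α cells, 0.29, did not pass (limma, adjusted p = 0.309), and 42% of all genes did not overlap in that line. Only the summed value of Hspa1a and Hspa1b, at -0.53, is free of the split of reads between these near-identical genes. In GSK3α cells the sum changed by 0.01 (limma, adjusted p = 0.973).

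The response also differed for Hspe1, by -0.15 (adjusted p = 0.038), with lower values in treated GSK3β cells and higher values in treated GSK3α cells. This call was lost under 9 of 18 alternatives. The rise of Hspe1 in GSK3α cells, 0.05, did not pass (limma, adjusted p = 0.527).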

How the results depend on the processing

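The fall of Hspa1a and Hspa1b in GSK3β cells passed under all 18 alternatives that hold these genes as separate entries, with adjusted p up to 0.0243. That of Dnajb1 was lost only in limma without the trend of spread with level (adjusted p = 0.0539), as was the Hspa1a difference between the lines (0.0611). Over the genes and alternatives run, 2129 of 2324 values kept direction and side of the threshold, 163 lost the call, 20 gained it and 12 turned sign without a call on either side.

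Without the trend, 3 genes passed in the GSK3α line, 980 in the GSK3β line, 133 for the difference and 5762 between the untreated lines. Of the heat shock protein genes 2 passed in GSK3β cells, 0 for the difference and 3 between the untreated lines. The count of these genes for the difference was 4 with a mean of at least 5, 4 with equal sums, 1 with median ratio scaling and 5 with limma-voom. Over all genes it was 929, 936, 947 and 909 in the same order. With the replicate block it was 1, since Hspe1 was lost (adjusted p = 0.0549), and no other call of the 10 genes changed; 106, 1997, 831 and 6648 genes passed in the GSK3α line, the GSK3β line, the difference and the untreated lines. The cause of these shifts was not tested.

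With 1 library left out, the calls of the 10 genes ranged from 0 to 0 in the GSK3α line, 3 to 7 in the GSK3β line, 1 to 5 for the difference and 3 to 5 between the lines, and those of all genes from 16 to 186, 864 to 2277, 353 to 1339 and 5669 to 6554. None of the 12 sign turns was called. Signs turned for Hsp90aa1 with equal sums (-0.0018 in GSK3β cells, 0.0011 between the lines) and limma-voom (-0.0017 and 0.0012). Without untreated GSK3α library 1 they turned for Dnajb1 (0.0034), Hsp90aa1 (0.0031) and Hsp90ab1 (-0.012) in GSK3α cells, for Hsph1 (4e-04) and Hspb1 (0.0177) in the difference, and for Hspe1 (-5e-04) between the lines. Without untreated GSK3α library 2 it turned for Hspd1 in GSK3α cells (0.0089), and without treated GSK3β library 2 for Hspb1 in the difference (0.0113). With untreated GSK3α library 2 left out in place of 1, the values were -0.1053 for Dnajb1, -0.0281 for Hsp90aa1 and 0.0419 for Hsp90ab1 in GSK3α cells, -0.1209 for Hsph1 and -0.113 for Hspb1 in the difference and 0.0409 for Hspe1 between the lines, and with library 1 left out -0.0813 for Hspd1 in GSK3α cells; these end the ranges over left-out libraries. Hspa1a values rest on 116 to 207 estimated reads per library, and the SE of its change in GSK3β cells was 0.11. The part of read number in that SE was not tested.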
